A study of Mus musculus with 2 samples.

Results

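Sidt1, Afg3l1, Csdc2, Gpatch1, Dalrd3 and D630045J12Rik are 6 genes outside the usual T cell gene lists whose signals stood among those with the largest excess in Foxp3-negative over Foxp3-positive CD4+ T cells. They were chosen for that excess from 18193 genes, so the difference on the probe set that chose them is a description and not a finding. The question here is what the remaining probe sets, the signal level, the related genes and the neighbouring genes show beside it. All probe sets that the platform annotation pairs with exactly 1 of these symbols were taken, which gave 12 of the 45101 probe sets on the array.

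The cells came from DEREG mice, which carry a transgene that places green fluorescent protein (GFP) under control of the Foxp3 gene's promoter. After negative selection for CD4+ T cells, flow sorting separated GFP-positive, Foxp3-positive from GFP-negative, Foxp3-negative cells, with a purity given as greater than 99%. Both groups carry the transgene, and neither a treatment nor the age, number or pooling of the mice is given in the sources used here. Each group was hybridised to 1 Affymetrix Mouse Genome 430 array. With 1 array per group there is no replicate check, and no test or p-value is given.

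The transcription factor Foxp3 marks regulatory T cells, which restrain other immune cells, so the GFP-negative cells hold the conventional helper T cells. The genes described here act elsewhere in the cell. Sidt1 encodes a membrane protein of the SID1 family, named after a worm protein needed for the uptake of double-stranded RNA. Afg3l1 encodes a subunit of the m-AAA protease of the inner mitochondrial membrane, which removes damaged membrane proteins and matures others; its human counterpart is a pseudogene. Csdc2 encodes an RNA-binding protein with a cold shock domain, known mainly from brain, and Gpatch1 a spliceosome-associated protein with a G-patch, the motif that binds and activates DEAH-box RNA helicases. Dalrd3 encodes a protein with the anticodon-binding domain of arginyl-tRNA synthetase, which guides the methyltransferase Mettl2 to arginine tRNAs. D630045J12Rik is the mouse counterpart of human KIAA1549, a membrane protein gene known from its fusion with BRAF in childhood brain tumours.

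Sequences from RefSeq (build GRCm38.p6) were found for the promoters of 4 of the 6 genes, those of D630045J12Rik, Afg3l1, Dalrd3 and Sidt1. The windows below hold the 250 bases before the transcript start that this source lists, for the members with the highest and the lowest number of CpG sites, shown as the extremes among the members. They lie at chr6:38254140-38254389 on the minus strand and chr16:44332839-44333088 on the minus strand, and capitals mark CpG. That start lies 374 bases inside the RefSeq gene record of Sidt1 and 2408 bases inside that of Dalrd3, whereas it is the edge of the record for D630045J12Rik and Afg3l1.
D630045J12Rik: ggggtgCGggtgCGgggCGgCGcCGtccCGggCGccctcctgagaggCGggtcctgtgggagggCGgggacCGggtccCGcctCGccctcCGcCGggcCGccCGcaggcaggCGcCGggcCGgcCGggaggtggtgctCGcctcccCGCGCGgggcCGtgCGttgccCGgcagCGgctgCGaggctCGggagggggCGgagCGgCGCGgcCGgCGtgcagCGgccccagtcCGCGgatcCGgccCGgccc
Sidt1: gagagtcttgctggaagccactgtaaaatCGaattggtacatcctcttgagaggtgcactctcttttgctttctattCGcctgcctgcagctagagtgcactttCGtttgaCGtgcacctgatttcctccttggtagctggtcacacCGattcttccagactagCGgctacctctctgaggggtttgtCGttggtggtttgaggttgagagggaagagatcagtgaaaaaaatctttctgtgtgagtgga

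The D630045J12Rik window holds 41 CpG sites and 85.2% G or C, against a median of 6 sites and 52.4% over 32851 windows of the same length. The Sidt1 window holds 7 CpG sites and 48.4% G or C, and those of Afg3l1 and Dalrd3 hold 25 and 14 CpG sites. Of 6 motifs searched on both strands, none was present in all 4 windows. The GC box letters GGGCGG occurred 4 times before D630045J12Rik and 1 time before Dalrd3, and in 32.7% of all windows. The ETS letters CCGGAAG occurred 1 time, before Dalrd3, and in 6.91% of all windows. TATAAA, the forkhead letters TGTTTAC, the RUNX letters TGTGGT and the STAT letters TTCNNNGAA were in none of the 4 windows and in 12.4%, 3.17%, 14.0% and 7.02% of all windows. These are letter matches and not binding sites.

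The RefSeq gene record of Dalrd3, chr9:108567484-108572773, also holds 2 microRNA genes on the plus strand, and their 5p arms are shown with the seed (bases 2 to 8) in capitals because a probe set named for one of them adds a reading inside this gene. They lie at chr9:108568325-108568347 and chr9:108568789-108568811, inside the record but upstream of the transcript start used for the promoter window, which is at 108569892.
mmu-miR-191-5p: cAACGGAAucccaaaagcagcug
mmu-miR-425-5p: aAUGACACgaucacucccguuga

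Signals are the authors' MAS5 values on a linear scale, with 1 value for each probe set of each array. The CD4+ identity of both samples could be checked against 11 T cell markers with a probe set, including Cd4, Cd3d, Cd3e and Cd3g, and all 11 were above the signal floor on both arrays. The floor, 61.48, is the 90th percentile of the signals of 61 genes restricted to other tissues, such as liver, heart, pancreas and neurons. Lower signals were set to the floor before taking log2, and a fold against a signal below it is a lower bound, written as at least N-fold. All 6 members passed the rule that at least 1 signal of the brightest probe set be above the floor, as did 10404 of the 18193 genes. Medians of the signals of all probe sets were 46.9 (GFP-positive) and 40.8 (GFP-negative). The ratio of 3′ to 5′ control probe set signals, which increases when RNA breaks down or copying stops early, was 5.30 (GFP-positive) and 3.57 (GFP-negative) for Actb, and 9.27 and 6.24 for Gapdh. Its part in the members' differences was not tested.

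**Figure D1:**
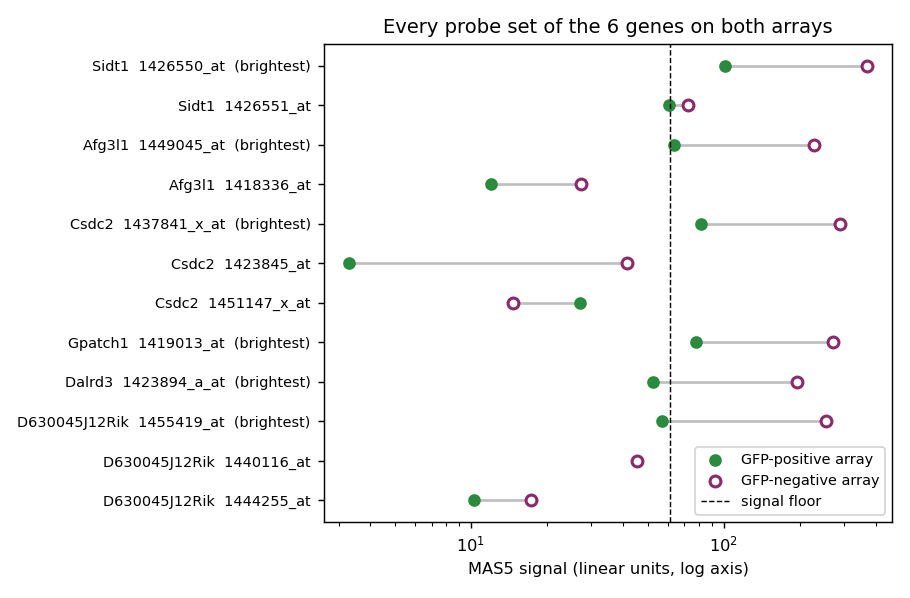
The MAS5 signal (x axis, log scale) of each of the 12 probe sets of the 6 genes (y axis) is drawn on the GFP-positive array (filled) and the GFP-negative array (open), with a dashed line at the floor of 61.48. Each gene's brightest probe set reaches 196.2 or more on the GFP-negative array, whereas 5 of the 6 further probe sets lie below the floor on both arrays.

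On its brightest probe set, 1426550_at, Sidt1 read 101.1 in GFP-positive cells, against 368.4 in GFP-negative cells. The GFP-negative signal was 3.64-fold higher, a log2 difference of −1.87 (GFP-positive minus GFP-negative, as throughout). Its second probe set, 1426551_at, was designed from the same source sequence and gave 60.7 and 72.0. That reading was above the floor in GFP-negative cells alone, so it was at least 1.17-fold lower in GFP-positive cells. Both probe sets of Sidt1 read lower on the GFP-positive array, but the second lay near the floor and its direction is uncertain. Its signals were reached by 11 of the 61 tissue-restricted genes on the GFP-positive array and by 5 on the GFP-negative array. Sidt1 was the only member with a further probe set above the floor on either array.

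Afg3l1, the m-AAA protease subunit, had signals of 63.4 and 228.2 on probe set 1449045_at, a 3.60-fold or −1.85 log2 difference. The GFP-positive signal lay just above the floor, a level that 9 of the 61 tissue-restricted genes also reached on that array. Its second probe set, 1418336_at, made from the same transcript record, gave 12 and 27.2. Both of these are below the floor, so this probe set gives no fold and neither backs nor opposes the first.

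Csdc2, the cold shock domain gene, had signals of 81.6 and 287.9 on probe set 1437841_x_at, a 3.53-fold or −1.82 log2 difference. The suffix _x_at marks probe sets with probes that can also match other transcripts, and the annotation gives no source record for this one. Both other probe sets of Csdc2 share a source record and were below the floor on both arrays: 1423845_at gave 3.3 and 41.6, and 1451147_x_at gave 26.9 and 14.7. The first was dimmer on the GFP-positive array and the second on the GFP-negative array. With probe sets of the _s_at and _x_at kinds left out, Csdc2 had no signal above the floor at all.

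Gpatch1, the spliceosomal G-patch gene, is represented by a single probe set, 1419013_at. It gave 77.7 and 271.4, so that the GFP-positive signal was 3.49-fold lower (−1.80 log2). No second reading of this gene exists among the probe sets used, so its difference rests on 1 probe set on 1 array per group.

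Dalrd3, the tRNA methylation partner, also has a single probe set of its own, 1423894_a_at, whose suffix marks transcripts of one gene. It gave 52.8 and 196.2, so the GFP-positive signal was below the floor and the gene was at least 3.19-fold lower in GFP-positive cells (−1.67 log2). A probe set that the annotation gives to both Wdr6 and Dalrd3, 1447879_x_at, was left out by the rule on symbols. It gave 23.5 and 15.0, both below the floor. Probe set 1459927_at, annotated to Mir425 within the span of Dalrd3, gave 78.2 and 34.0. This reading was higher on the GFP-positive array, by at least 1.27-fold, opposite to the probe set of Dalrd3. Whether it reads the microRNA precursor, Dalrd3 RNA or neither is not given in the sources used here.

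D630045J12Rik had signals of 57.1 and 253.5 on probe set 1455419_at, and was at least 4.12-fold lower in GFP-positive cells (−2.04 log2). Its further probe sets were below the floor on both arrays. Probe set 1440116_at gave 45.6 and 45.3, nearly equal values, and 1444255_at gave 10.3 and 17.3. Neither gives a fold, so the difference of this gene rests on 1 of its 3 probe sets.

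Across the members, the brightest probe sets ranged from 52.8 to 101.1 on the GFP-positive array and from 196.2 to 368.4 on the GFP-negative array. On the GFP-negative array 1 of the 61 tissue-restricted genes had a signal at least as high as each of these 6 probe sets. The members were chosen for an excess on that array, so their standing there is not a finding. On the GFP-positive array the same number ran from 1 for Sidt1 to 14 for Dalrd3. All 6 members were at least 2-fold lower in GFP-positive cells by the way they were chosen, against a background of 181 of 10404 genes (1.74%). With the floor doubled 4 of the 6 were, against 0.953% of all genes then above the floor. With all probe sets of a gene averaged 3 were, against 0.769%. With the floor at 61.48 and the brightest probe set of each gene, 182 genes (1.75%) were at least 2-fold higher. At least 3-fold lower were 21 genes (0.202%), and the 6 members are among them.

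In the ranking of the 8265 genes with both signals above the floor, Sidt1 was in place 2, Afg3l1 in place 3, Csdc2 in place 5 and Gpatch1 in place 6. Lyst preceded them with 128.2 and 477.3 and Eomes, a T cell transcription factor gene, stood between them. Pja1, Tox2 and Macrod1 followed at 3.46-fold, 3.22-fold and 3.08-fold lower, so the step from Gpatch1 to the next gene outside was from 3.49-fold to 3.46-fold. Among the 2139 genes above the floor on 1 array, D630045J12Rik was in place 3, after Efna5 and Cxcr5, and Dalrd3 in place 5. Sostdc1 lay between these 2 members at 3.22-fold lower, and Rptor, Ap3s2 and Extl2 followed Dalrd3 at 3.18-fold, 3.16-fold and 3.11-fold, all as lower bounds. The values just outside the members are thus close to those just inside.

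**Figure D2:**
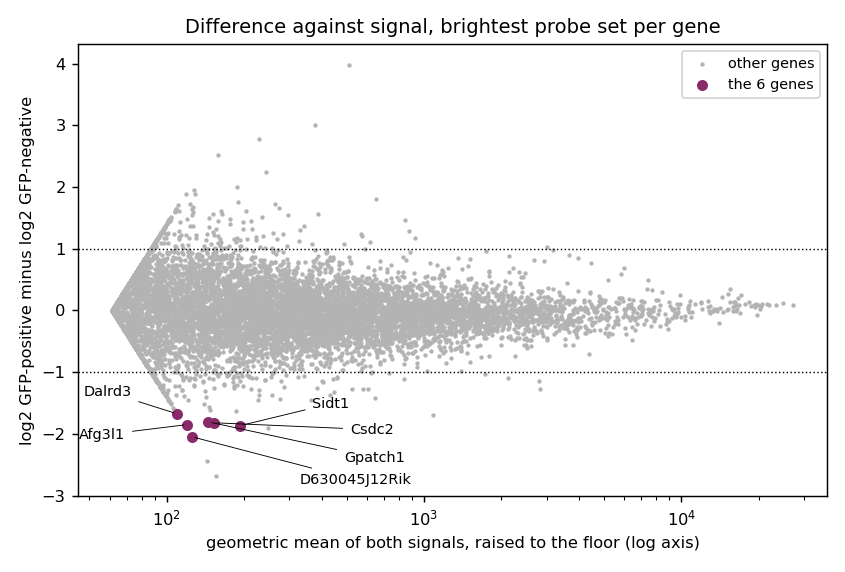
Each point is a gene, placed by the geometric mean of its floored signals (x axis, log scale) and its log2 difference, GFP-positive minus GFP-negative (y axis), with dotted lines at 2-fold. The 6 genes lie at geometric means between 109.8 and 193.0, where the spread of all genes is wide in both directions.

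The 6 members share a low signal. Their geometric means over both arrays lay between 109.8 and 193.0, so all 6 fell in the band from 100 to 200, which holds 1982 of the 10404 genes. In that band 4.19% of genes were lower by 2-fold or more on the GFP-positive array and 4.24% were higher by as much. From 200 to 400 the shares were 1.13% and 1.33%, and at 800 or more they were 0.322% and 0.214%. Of the 21 genes at least 3-fold lower, 19 lay in the members' band. Below a mean of 100 the floor itself allows at most a 2.65-fold difference, so that no gene there could reach 3-fold.

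Probe sets of the same gene differed from each other most in the same range. Among probe sets with both signals above the floor, the within-gene standard deviation of the log2 difference was 0.513 in the band from 100 to 200 (1056 probe sets of 489 genes). This fell to 0.382 from 200 to 400 and to 0.218 at 800 or more, and it was 0.397 over all signals. This spread comes from within the same pair of arrays and leaves out any variation from mouse to mouse or sort to sort.

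Further probe sets of other genes with a similar excess in GFP-negative cells give the scale on which the members can be read. Beside the members, 175 genes were at least 2-fold lower on their brightest probe set. Of these, 71 had 1 probe set, 43 had further probe sets that were all below the floor and 61 had 105 further probe sets above it. Of the 105, 58 (55.2%) were lower and 47 higher in GFP-positive cells, with a median of −0.13 log2, and 9 (8.57%) were at least 2-fold lower. Among the 77 of these genes in the members' own band from 100 to 200, 30 of 44 further probe sets (68.2%) were lower, with a median of −0.50 log2, and 4 (9.09%) were at least 2-fold lower. For the 42 genes at 200 or more, 22 of 44 (50.0%) were lower and 5 (11.4%) at least 2-fold lower; the difference between the bands was not tested. Over all genes above the floor, 46.5% of 7080 further probe sets were lower and 1.85% were at least 2-fold lower.

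Among the 15 other genes at least 3-fold lower, 5 had 1 probe set, 4 had no further probe set above the floor and 6 had 7 further probe sets above it. Of these 7, 5 were lower and 2 higher in GFP-positive cells, and 2 were at least 2-fold lower. For the 6 members the corresponding counts are 2 genes with 1 probe set, 3 with no further probe set above the floor, and 1, Sidt1, with 1 further probe set, which was lower by less than 2-fold. In no member did a second probe set give a 2-fold difference above the floor.

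**Figure D3:**
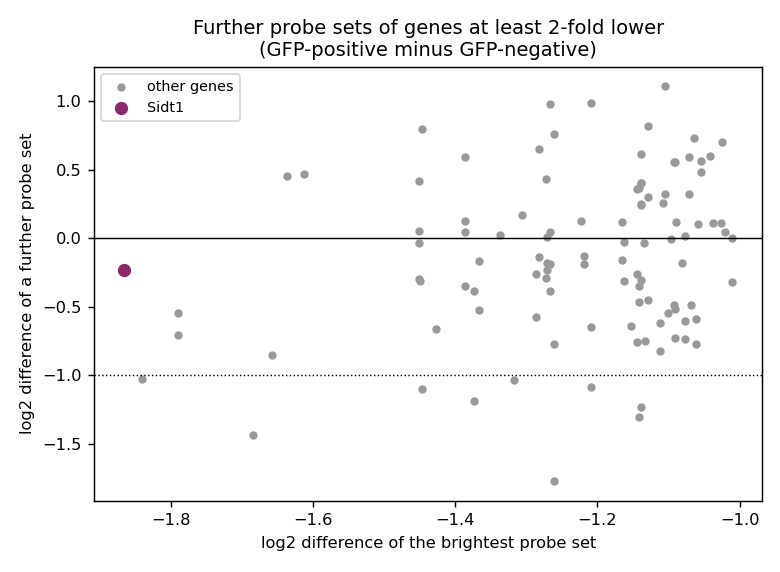
For each gene at least 2-fold lower in GFP-positive cells, the log2 difference of its brightest probe set (x axis) is set against that of each further probe set above the floor (y axis), with a dotted line at 2-fold lower. Sidt1 is the only member present, at −1.87 and −0.23, and the 105 points of other genes spread on both sides of 0.

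On its brightest probe set, none of the members' relatives and partners differed by 2-fold. Of 74 genes on the lists of related genes that were above the floor, 49 were lower and 25 higher in GFP-positive cells, with a median of −0.07 log2, and none was at least 2-fold different in either direction. Over all 10404 genes, 5325 were lower and 5076 higher, with a median of −0.01. With a background of 1.74%, a count of none among 74 genes does not set these lists apart. Further probe sets above the floor, 70 of 41 of these genes, were lower in 42 and higher in 28 cases, and 4 of them passed 2-fold. Cmtr1, a messenger RNA cap methyltransferase gene with a G-patch, was 2.35-fold lower on 1 of them (130.8 and 307.5) but had 367.5 and 373.8 on its brightest probe set. The others were at least 2.33-fold higher for Hspa9, 2.72-fold higher for Tfip11 and 2.52-fold higher for Ybx1.

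Sidt2, the paralog of Sidt1 and a lysosomal membrane protein gene, had signals of 353.0 and 339.3, a difference of 0.06 log2 opposite in sign to that of Sidt1. Of 15 genes that sense double-stranded RNA or make and use small RNAs, 13 were lower and 2 higher, and the median was −0.24. Ago2, the slicing Argonaute, had signals of 225.0 and 431.6 on its brightest probe set and was 1.92-fold lower, but its other probe sets went both ways, from 1.27-fold lower to 1.56-fold higher. Drosha, the nuclease that cuts microRNA precursors, was 1.76-fold lower (395.6 and 697.2), and a further probe set was 1.45-fold lower. Ifih1, which encodes the cytosolic sensor MDA5, had 493.6 and 742.3, a difference of −0.59 log2.

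The partners of Afg3l1 differed little. Afg3l2, which forms the same protease, had signals of 239.9 and 320.8, or 1.34-fold lower, and a further probe set gave 69.8 and 68.0. Spg7, the other subunit, was 1.22-fold higher (178.0 and 145.7). Of 15 mitochondrial protein quality genes 10 were lower and 5 higher, with a median of −0.07. Phb2, a prohibitin that surrounds the protease in the membrane, had signals of 2078.6 and 2120.9.

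Among cold shock domain genes, Carhsp1, the closest relative of Csdc2, had signals of 106.1 and 173.5 and was 1.64-fold lower in GFP-positive cells. Its second probe set gave 104.5 and 141.5, or 1.35-fold lower, so both went the same way as the bright probe set of Csdc2. Ybx1, an abundant messenger RNA-binding protein gene, had 7064.9 and 6898.6, whereas a further, dim probe set gave 155.1 and 37.9, above the floor on the GFP-positive array alone. Ybx3 was 1.20-fold lower. The germ cell and embryonic members Ybx2, Lin28a and Lin28b were below the floor on both arrays.

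Of 20 G-patch genes, 11 were lower and 9 higher, and their median of −0.02 turned to 0.01 after loess and with the floor doubled. Gpatch2l differed by −0.68 log2 (95.2 and 152.2) and Gpatch4 by 0.68 (592.3 and 370.5), but both further probe sets of Gpatch4 were lower. Dhx35, the helicase that GPATCH1 activates, had signals of 144.5 and 166.9, or 1.16-fold lower. The 5 DEAH helicase genes had a median of −0.07, with 4 lower and 1 higher.

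Of 15 genes of tRNA modification and arginine tRNA charging, 9 were lower and 6 higher, with a median of −0.07 that turned to 0.02 after quantile normalization. Mettl2, the methyltransferase that works with Dalrd3, had signals of 272.1 and 253.4, and its further probe sets went both ways (154.4 and 90.2, and 30.4 and 122.5). Mettl6 was 1.51-fold lower and Ctu1, a thiolation enzyme gene, 1.68-fold higher, and a further probe set of Mettl6 was 1.24-fold higher. Rars, the cytosolic arginyl-tRNA synthetase gene, had 1304.2 and 1365.4.

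**Figure D4:**
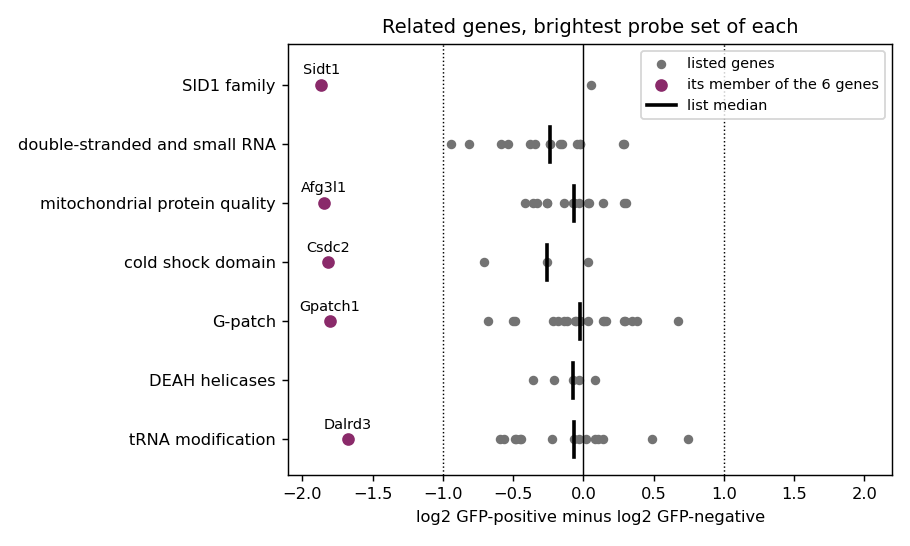
Each grey point is a related gene above the floor, placed by its log2 difference, GFP-positive minus GFP-negative (x axis), in its list (y axis), with black bars at list medians and dotted lines at 2-fold. The 5 members with a list, which were chosen for a large difference, lie between −1.87 and −1.67. By that choice they lie beyond the related genes on their brightest probe sets, the farthest of which is Ago2 at −0.94.

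Genes next to the members on the chromosome were read in the same way. In the order of gene starts, the nearest genes with a probe set on each side gave 12 neighbours. Of these, 8 were above the floor, 6 of them lower and 2 higher, and none was 2-fold different. Mir425, 1 of the 12 and of the 2 higher, lies inside Dalrd3 and not beside it. Over all 10404 genes, 5325 were lower and 5076 higher, and 1.74% were at least 2-fold lower. With that background, a count of none among 8 genes does not set the neighbours apart. Beside Sidt1, Usf3 had signals of 379.2 and 485.0 and Spice1 187.2 and 233.7, or 1.28-fold and 1.25-fold lower. Ndufaf3, a mitochondrial complex I assembly gene next to Dalrd3, was 1.40-fold lower (205.6 and 287.9). Wdr6, whose span overlaps that of Dalrd3, was 1.18-fold higher on its brightest probe set (962.8 and 814.2) and 1.17-fold lower on another (320.7 and 376.4). Pmm1 beside Csdc2 was 1.56-fold lower (98.2 and 152.9), and Def8 beside Afg3l1 was at least 1.69-fold higher (104.0 and 38.0). Phf5a beside Csdc2 and Zc3hav1l beside D630045J12Rik were nearly equal, at 1.01-fold and 1.05-fold lower. Dbndd1 beside Afg3l1, Lrp3 and Rhpn2 beside Gpatch1 and Tmem213 beside D630045J12Rik were below the floor on both arrays. So was Atp6v0a4 (10.2 and 3.1), which overlaps the span of D630045J12Rik and is not among the 12.

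Likeness was measured by the distance between pairs of log2 signals over these 2 arrays, with signals below the floor raised to it. The genes nearest by this distance included other members and genes from both rankings. Macrod1 and Bcl2l13 were nearest to Sidt1 at distances of 0.19 and 0.44, D630045J12Rik and Sostdc1 to Afg3l1 at 0.16 and 0.21, and Eomes and Gpatch1 to Csdc2 at 0.02 and 0.11. Pja1 and Eomes were nearest to Gpatch1, Rptor and Sostdc1 to Dalrd3, and Afg3l1 and Gpatch1 to D630045J12Rik. With 2 arrays such likeness says only that the floored signals were close. Before flooring, Sostdc1 read 39.3 on the GFP-positive array, against 63.4 for Afg3l1 and 52.8 for Dalrd3.

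Markers of other cells were read beside these differences, since fewer cells of a type and less RNA per cell cannot be told apart in sorted bulk samples. B cell markers, 16 with a probe set, summed to 3403.0 in GFP-positive cells and to 6166.1 in GFP-negative cells, in the same direction as the members. Of the 8 above the floor, 5 were lower and 3 higher in GFP-positive cells, with a median of −0.74 log2, and 2 were at least 2-fold lower. Ighm, the immunoglobulin heavy chain gene, gave most of that sum on its brightest probe set (1880.7 and 4139.0). Its further probe sets above the floor went both ways, from −1.23 to 0.62 log2, and most were higher in GFP-positive cells. Cd22, a B cell surface receptor gene, was 2.39-fold lower (98.3 and 235.1). The antigen presentation genes went both ways. Cd74, H2-Aa and H2-Eb1 were 1.86-fold, 1.79-fold and 1.55-fold lower, but H2-Ab1 was 1.47-fold higher (119.7 and 81.4). Pou2af1 was nearly equal (105.4 and 102.6). The defining markers Ms4a1, Cd79a, Pax5 and Fcer2a were below the floor on both arrays, and Cd79b was 3.13-fold higher on the GFP-positive array (221.9 and 70.8). The summed signals were 493.3 and 636.7 for 15 myeloid and dendritic markers, 2278.3 and 2441.3 for 9 CD8 T and NK cell markers, and 262.2 and 284.7 for 8 erythroid and platelet markers. These sums include signals below the floor. Of the 5 myeloid and dendritic markers above it, 4 were higher in GFP-positive cells and 1 lower, with a median of 0.08 log2. The lower one, Fcgr3, was at least 2.05-fold lower (35.0 and 125.8). Of the CD8 T and NK cell markers 3 were lower and 2 higher, and of the erythroid and platelet markers 2 were lower and 1 higher. Below the floor on both arrays were 8 of the 16 B cell, 10 of the 15 myeloid and dendritic, 4 of the 9 CD8 T and NK cell and 5 of the 8 erythroid and platelet markers, and the part of other cells in the members' differences was not tested.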

How the data were processed

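RNA of GFP-positive and GFP-negative CD4+ T cells was hybridised to 1 array each, from 6 µg of total RNA per the labels' protocols. The deposited values are linear signal intensity per probe set, which the authors computed with MAS5 (submitters' processing notes). The sources used here do not give its version, and detection calls were not used. The mean after trimming 2% at each end was 150.0 on both arrays, and no further scaling was applied. The platform annotation gave 1 symbol for 34958 probe sets, several for 932 and none for 9211, and 64 control probe sets were left out. A gene was represented by its brightest probe set (mean log2 signal over both arrays). The floor came from 109 probe sets of 61 of 70 listed tissue-restricted genes, of which 13 passed it. Genes were named if they were members, their paralogs or partners, listed genes past 1.5-fold or chromosomal neighbours. The 3 on each side in the ranking and the 2 nearest in signal were also named. Ndufaf3, Wdr6, Atp6v0a4 and markers of other cells were chosen with their values known where they fall outside this. Members and lists were chosen with earlier results of these data known. Gene order came from RefSeq GRCm38.p6; the build of the array design was not used. Steps were tested on simulated data. The planted differences lay only in genes far above the floor, so recovery at signals as low as those of the members was not tested. Analyses used Python 3.11.15, pandas 2.3.3 and statsmodels 0.14.6 (loess span 0.3). Alternatives were quantile normalization, loess, other floors, averaged probe sets and leaving out _s_at and _x_at probe sets. The number of arrays limits the precision.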

Additional observations from a re-analysis of the deposited data

How the results depend on the processing

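No paired analysis was possible because each group has 1 array. All 6 members remained lower in GFP-positive cells under every alternative that gave a value. Because the members were chosen for this excess on the same arrays, that outcome was largely fixed in advance. Their log2 differences moved by less than the 0.397 standard deviation of probe sets of the same gene after quantile normalization, after loess, with the floor halved and without a floor. With the floor doubled they were −0.89 for Afg3l1, −1.23 for Csdc2, −1.14 for Gpatch1, −0.67 for Dalrd3 and −1.04 for D630045J12Rik, by construction smaller since the raised GFP-positive signals bound the fold. With all probe sets of a gene averaged they were −1.05 for Sidt1, −0.92 for Afg3l1, −0.61 for Csdc2 and −0.68 for D630045J12Rik, because the further probe sets are dim. At least 2-fold lower were 4 of the 6 with the floor doubled, against 0.953% of all 7349 genes then above the floor. With probe sets averaged 3 were, against 0.769% of 10536 genes. Without _s_at and _x_at probe sets Csdc2 gave no value. The 181 genes at least 2-fold lower and 182 higher became 70 and 58 with the floor doubled and 81 and 85 with probe sets averaged. These counts became 608 and 917 with the floor halved or without a floor. The lower genes were 4.26% of 14280 genes with the floor halved and 5.84% of 10404 without a floor. In the 175 other genes at least 2-fold lower, 55.2% of further probe sets were lower (exact binomial 95% interval 45.2% to 65.0%, counting error only). That interval treats the 105 probe sets as independent although they come from 61 genes, so it can be too narrow. Under each other floor the genes and probe sets that counted were chosen anew. The share was then 65.4% with the floor doubled and 42.5% with it halved, so these shares do not cover the same genes. The cause was not tested. No related list's median moved by more than the 0.397 standard deviation. The largest median, −0.26 for cold shock domain genes, is itself smaller than this, so a change of sign could pass the rule. The cold shock domain median was −0.05 with probe sets averaged. The G-patch median changed sign under 2 alternatives and the tRNA modification median under 1.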
